A study of Arabidopsis thaliana with 14 samples.

Results

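The effect of the inducer spray alone was measured in rosettes of wild-type Arabidopsis thaliana, accession Col-0, which carries no transgene. The comparison set 3 libraries of Col-0 sprayed with estradiol against 3 libraries of Col-0 sprayed with water, chosen by their titles, and so used 6 of the 14 libraries of the series. Estradiol plants received estradiol at 50 µM together with 0.001% of the wetting agent Silwet-L77, and water plants received water with the same agent. Plants were 3 weeks old, rosettes were taken 3 h after the spray, and each library came from a pool of 5 whole rosettes. The labels call the libraries biological replicates and number them 1 to 3 in each group. The other 8 libraries, 4 from each of a pair of lines with an inducible WRKY75, all sprayed with estradiol, entered the fit to share 1 estimate of the spread and are otherwise quoted only as ranges. The sources used here do not give the solvent of the estradiol stock, and unsprayed plants were not analysed here.

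Estradiol is used in plant research as an inducer because plants lack the animal estrogen receptor, while a chimeric transcription factor carrying the hormone-binding part of that receptor can be placed in a transgenic line. Wild type sprayed with the inducer is the control for what the compound and its application do by themselves. Wetting and handling of leaves are known to switch on touch-responsive genes and jasmonate synthesis. Jasmonate-isoleucine leads to removal of JAZ repressors, releases MYC2 and related factors, and induces both new JAZ genes and the enzymes that break the hormone down. A separate set of cold, drought and abscisic acid genes, including KIN1, COR15A and RD29A, responds to CBF factors that bind the CRT/DRE element and to abscisic acid.

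Total counts were 20520901 to 20767791 per Col-0 library, and 1 count corresponded to 0.0448 to 0.0528 CPM, the count scaled to a common library total by TMM. Photosynthesis genes, the rosette markers, summed to 89413, 49903 and 76767 CPM with estradiol and 77004, 59069 and 81252 CPM with water in replicates 1, 2 and 3. Of the floral markers 3 of 8 and of the root markers 3 of 10 passed the filter on low counts. Summed floral markers were 1.08 to 1.82 CPM with estradiol and 1.42 to 1.80 CPM with water, and summed root markers 21.8 to 40.4 CPM with estradiol and 25.9 to 37.1 CPM with water. The root markers EXPA7 and IRT1 were at 0 in all 6 libraries. Dividing-cell markers summed to 52.1, 33.5 and 66.2 CPM with estradiol and 45.0, 33.1 and 62.1 CPM with water. Photosynthesis and dividing-cell sums were thus lowest in replicate 2 of both groups. In pools of whole rosettes, fewer cells of a type and less RNA per cell cannot be told apart.

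No gene passed the test for a difference between estradiol and water. Of 19666 genes tested, edgeR's quasi-likelihood test with Benjamini-Hochberg adjustment called 0 (0%) at an adjusted p under 0.05, and the lowest adjusted p was 0.9998. DESeq2 called 0 as well. At an unadjusted p under 0.05 edgeR listed 310 genes (1.58%), 214 higher (1.09%) and 96 lower (0.488%), and DESeq2 listed 335, where 5% of the genes tested would be 983. The fitted log2 fold change, estradiol over water, was above 0 for 52.1% of genes, with a median of 0.01 and quartiles of -0.08 and 0.10. The median standard error was 0.18 and the unadjusted 95% interval reached 0.38 to either side for the median gene (log2 scale). For a typical gene a smaller change could not be told from 0 with 3 libraries a group. Calls used the adjusted p, a stricter limit. The gene MLO12, with a fitted log2 fold change of 1.16 ± 0.26 (SE), was not called. For many stress genes the intervals were several times wider.

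Libraries of 1 group differed from each other as much as libraries of different groups. The median SD over genes of log2 CPM within a group was 0.21 with estradiol and 0.18 with water. On the first principal component, with 38.4% of the variance, replicate 2 with estradiol lay at 35.9 and replicate 2 with water at 36.7, and the other 4 libraries lay below 0. On the second, with 28.4%, replicate 3 with estradiol stood apart at 42.4, next to 19.8 for replicate 2 with water and negative scores in the other 4. Correlations of log2 CPM across genes ran from 0.970 to 0.980 between estradiol libraries and from 0.976 to 0.989 between water libraries. Between an estradiol and a water library of the same number they were 0.988, 0.988 and 0.977 for numbers 1, 2 and 3. The estradiol libraries were no closer to each other than to the water libraries.

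**Figure D1:**
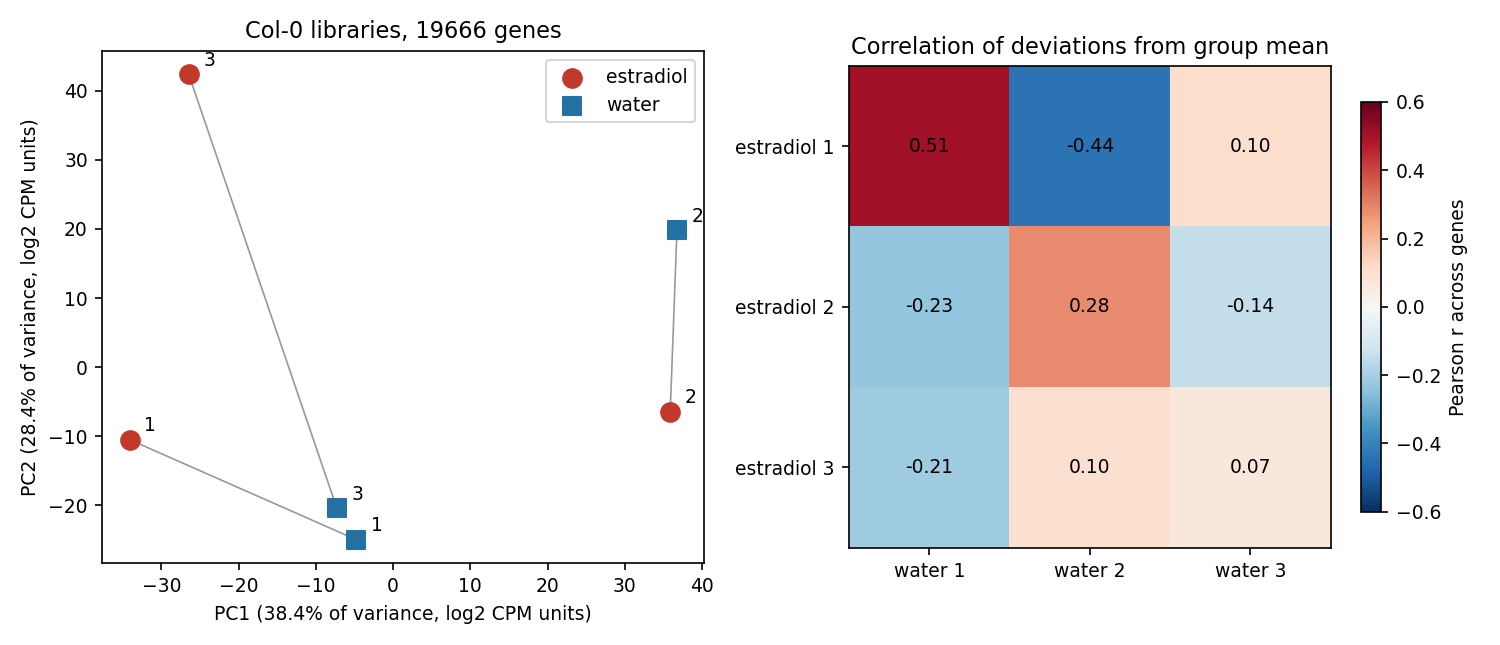
Left, Col-0 libraries on the first and second principal components of log2 CPM over 19666 genes (axes in log2 CPM units), with circles for estradiol, squares for water, the replicate number beside each and a line joining equal numbers. Right, Pearson correlation across genes between the deviations of each estradiol library (rows) and each water library (columns) from their group means. Both replicates 2 lie at the right, at 35.9 and 36.7, and the highest correlation is 0.51 for the pair numbered 1.

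Libraries numbered 1 and 2 shared part of their deviation from the group mean with the library of equal number, and those numbered 3 hardly did. Across genes the correlation of these deviations was 0.51 for replicate 1, 0.28 for replicate 2 and 0.07 for replicate 3. Between unequal numbers it lay between -0.44 and 0.10. Deviations cancel within a group, so the values for unequal numbers are not an independent baseline. The estradiol minus water differences repeated in part between pairs 1 and 3 and not with pair 2: their correlation across genes was -0.05 between pairs 1 and 2, 0.33 between pairs 1 and 3 and -0.37 between pairs 2 and 3. Among all genes tested, 11.3% were higher with estradiol in all 3 same-number pairs and 11.6% were lower in all 3. Among genes with a mean of at least 5 CPM and at least a 2-fold difference, pair 1 had 129 higher and 7 lower with estradiol, pair 2 had 53 higher and 79 lower, and pair 3 had 409 higher and 121 lower. The correlations are across genes, which are not independent replicates.

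The number of genes with a small unadjusted p rose most without estradiol replicate 2 and was lowest without estradiol replicate 3. Without the estradiol library of replicate 2 it was 1047 (5.28% of those tested), and without the pair numbered 2 it was 942, against 310 with all libraries. It was 163 without estradiol replicate 3, 553 without estradiol replicate 1 and 482 without water replicate 2. The count of genes called stayed at 0 in each of these settings. Without estradiol replicate 2 the lowest adjusted p in edgeR among the named genes followed across settings was 0.273, shared by AT2G39518 and AT3G46280. Splitting the libraries by number leaves 1 library a group, so no test within a number was possible.

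WRKY75, the gene of the inducible construct in the lines, lies at chr5:4149740-4151150 on the minus strand (TAIR10). Its native transcript stood at 2.69, 0.627 and 1.18 CPM with estradiol in replicates 1, 2 and 3, against 1.25, 0.428 and 0.946 CPM with water. The groups overlapped, although the estradiol library was higher in each of the 3 pairs, and replicate 1 was the highest and replicate 2 the lowest in both groups. The mean was 1.5 ± 1.07 CPM with estradiol and 0.875 ± 0.416 CPM with water (SD, n = 3 each), with a two-sided exact permutation p of 0.5, where 3 against 3 cannot go below 0.1. The fitted log2 fold change was 0.75 ± 0.72 (SE). It was 0.03 without estradiol replicate 1, 1.14 without estradiol replicate 2 and 0.42 without water replicate 2. In the sprayed lines WRKY75 lay between 28.2 and 167 CPM.

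Jasmonate genes had the widest range of fitted values among the lists examined, and they were high in replicates 1 and 3 with estradiol but not in replicate 2. All 31 members measured had a fitted log2 fold change above 0, against 52.1% of all genes, with a median of 0.64, against 0.01. This list, like the others, was chosen with earlier results of these data known. Genes of a list are not independent replicates, so these shares are a description and not a test. None was called, 4 had an unadjusted p under 0.05 (background 1.09%), and for 0 of 31 did the groups stay apart in either direction (background 4.56%). The summed level was 3775, 1816 and 3320 CPM with estradiol and 1681, 2517 and 1773 CPM with water in replicates 1, 2 and 3. Replicates 1 and 3 with estradiol were the highest of the 14 libraries, since the lines ranged from 1561 to 2860 and from 1093 to 2812 CPM, while replicate 2 with estradiol lay below its water counterpart. By pair the median difference was 1.37, -0.41 and 1.40, with 31, 8 and 28 of 31 members higher with estradiol, and 6 members were higher in all 3 pairs (19.4%, background 11.3%). The median moved to 0.97 without estradiol replicate 2, 1.08 without water replicate 2 and 0.27 without estradiol replicate 3.

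**Figure D2:**
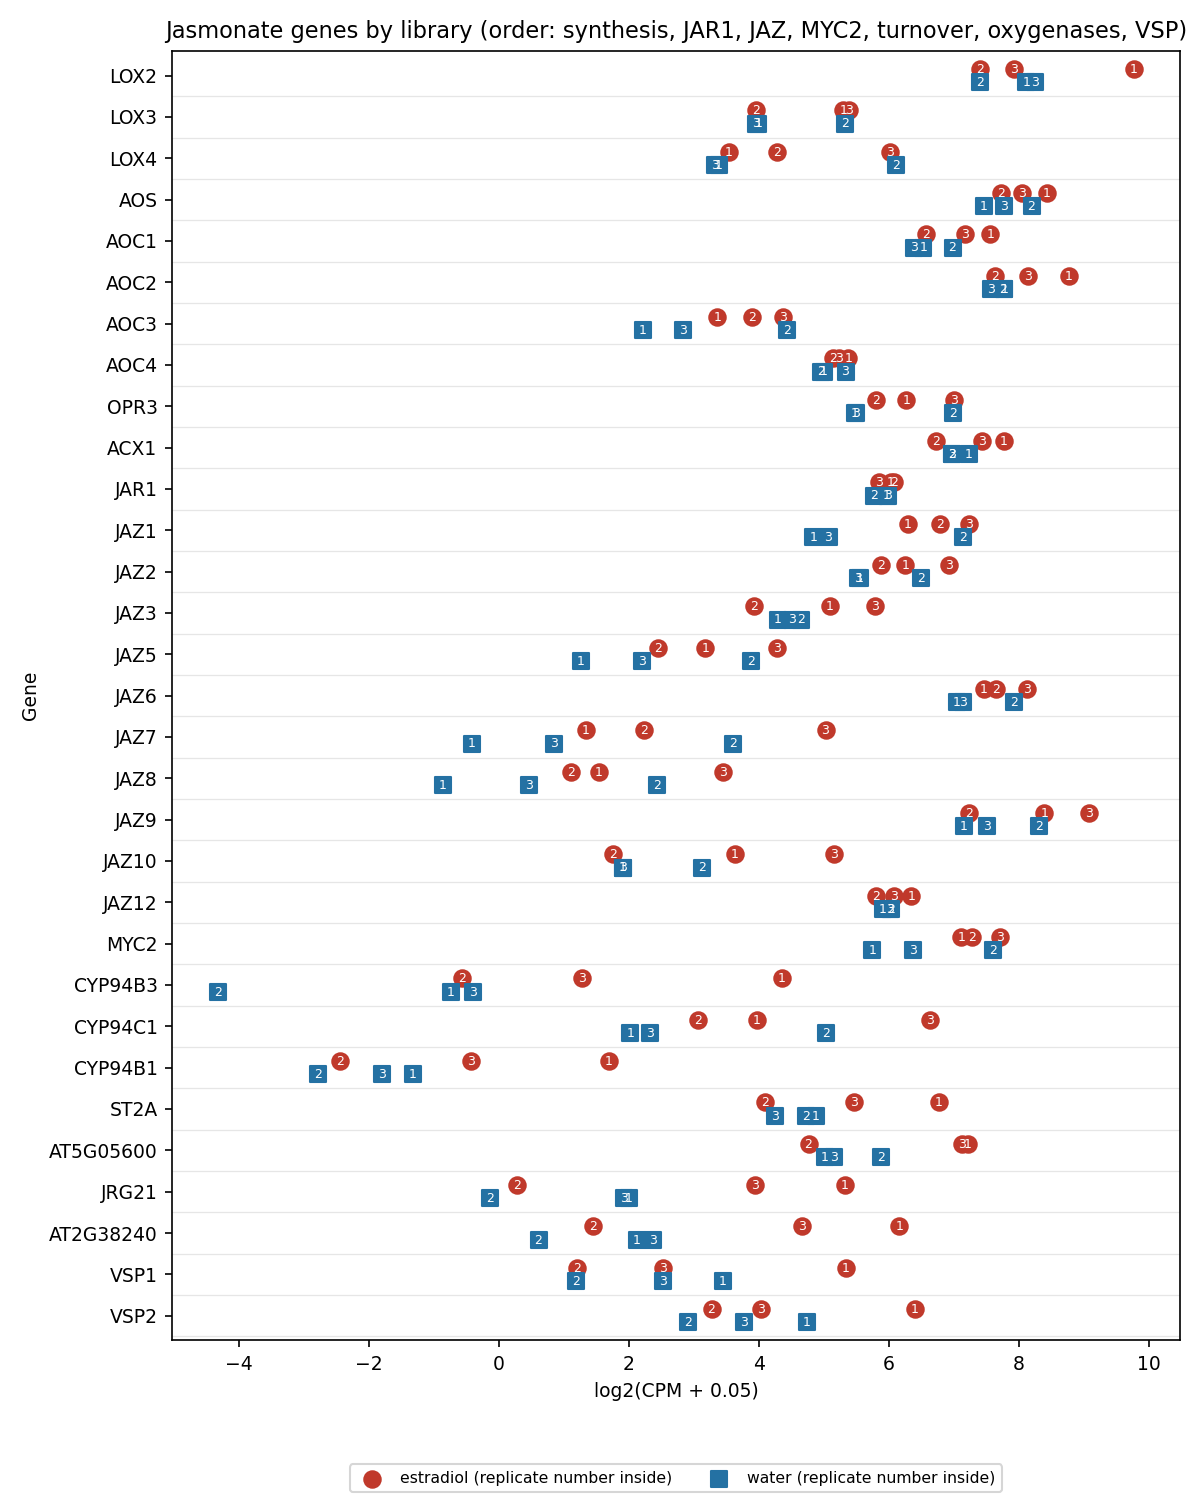
Level of each of the 31 jasmonate genes, on the log2(CPM + 0.05) axis, in the 3 estradiol (circles) and 3 water (squares) libraries, with the replicate number inside each symbol. From CYP94B3 to VSP2, replicates 1 and 3 with estradiol mostly lie to the right, as for CYP94B3 at 20.4 and 2.36 CPM, and replicate 2 with estradiol lies among or below the water libraries for most genes (below them for JAZ10, at 3.32 CPM).

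Enzymes of jasmonate synthesis had smaller fitted differences than the turnover genes. The 10 genes, from the lipoxygenases LOX2, LOX3 and LOX4 through allene oxide synthase and cyclases to OPR3 and ACX1, showed a median difference of 0.37 on the log2 scale, and 10, 1 and 8 of them were higher with estradiol in pairs 1, 2 and 3. LOX2 (chr3:16525410-16529352, plus strand), the main leaf lipoxygenase of this pathway, had 870.1, 169 and 242 CPM with estradiol, against 276, 169 and 304 CPM with water. It was high in replicate 1 with estradiol alone, its log2 fold change was 0.77 ± 0.67 (SE), and without that library it was -0.29. JAR1, the enzyme that couples jasmonate to isoleucine, had 65.1, 67.7 and 57.7 CPM with estradiol, against 62.5, 54.7 and 63.0 CPM with water, with overlapping groups.

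The JAZ repressor genes, early jasmonate targets, varied by single library. Their median deviation from the mean of the 6 libraries was 0.24, -0.24 and 1.11 with estradiol and -0.90, 0.38 and -0.63 with water in replicates 1, 2 and 3 (log2 CPM), so number 2 was the lowest estradiol library and the highest water library. Of the 10 measured, 10, 0 and 10 were higher with estradiol in pairs 1, 2 and 3, with median differences of 1.35, -0.90 and 1.82. JAZ10 (chr5:4218888-4220883, plus strand) had 12.3, 3.32 and 35.4 CPM with estradiol, against 3.70, 8.70 and 3.69 CPM with water. Replicates 1 and 3 with estradiol lay above all water libraries and replicate 2 below all of them. The log2 fold change of JAZ10 was 1.66 ± 0.78 (SE), and 0.53 without estradiol replicate 3. JAZ7 (chr2:14573080-14573856, plus strand) had 2.48, 4.66 and 32.4 CPM with estradiol, against 0.7, 12.0 and 1.75 CPM with water. Here replicate 3 with estradiol and replicate 2 with water were high, and the log2 fold change of 1.45 ± 1.29 became -0.44 without estradiol replicate 3 and 3.41 without water replicate 2. MYC2, the basic helix-loop-helix activator that JAZ proteins hold back, had 138, 154 and 209 CPM with estradiol, against 53.4, 194 and 82.5 CPM with water, with overlapping groups and a log2 fold change of 0.60 ± 0.52, which was 0.26 without water replicate 1 and 1.3 without water replicate 2.

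The jasmonate genes with the highest fitted fold changes, CYP94B3, AT2G38240, JRG21 and CYP94B1, encode hormone turnover enzymes or oxygenases. The repressor gene JAZ10 came next, at 1.66, ahead of CYP94C1, AT5G05600 and ST2A. CYP94B3 (chr3:17974977-17976670, minus strand), which hydroxylates jasmonate-isoleucine, had 20.4, 0.627 and 2.36 CPM with estradiol, against 0.550, 0 and 0.710 CPM with water. The groups overlapped, since replicate 2 with estradiol lay below replicate 3 with water. The log2 fold change was 4.19 ± 1.44 (SE; adjusted p = 0.9998 in edgeR), and 1.80 without estradiol replicate 1. CYP94B1, a close relative that also oxidises jasmonate-isoleucine, stood at 3.17, 0.134 and 0.689 CPM with estradiol, against 0.350, 0.0951 and 0.237 CPM with water. It was high in replicate 1 and higher with estradiol in every pair, with overlapping groups and a log2 fold change of 2.5 ± 0.94, or 0.82 without estradiol replicate 1. CYP94C1, which carries the oxidation further, had 15.6, 8.33 and 99.3 CPM with estradiol, against 4.00, 32.7 and 4.97 CPM with water. Its values were high in replicate 3 with estradiol and replicate 2 with water, and its log2 fold change of 1.56 ± 1.09 became -0.23 without estradiol replicate 3 and 3.19 without water replicate 2. ST2A, a hydroxyjasmonate sulfotransferase, had 109, 17.1 and 43.8 CPM with estradiol, against 29.2, 26.4 and 18.9 CPM with water, with replicate 2 below every water library.

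AT2G38240 (chr2:16012535-16014753, minus strand), annotated as a 2-oxoglutarate and Fe(II)-dependent oxygenase, had 71.2, 2.69 and 25.3 CPM with estradiol, against 4.3, 1.47 and 5.11 CPM with water. The estradiol library was higher in every pair, but replicate 2 with estradiol lay below replicates 1 and 3 with water. Its log2 fold change was 3.18 ± 1.01 (SE; adjusted p = 0.9998 in edgeR), and 1.93 without estradiol replicate 1. JRG21, another oxygenase of this family, had 40.0, 1.16 and 15.2 CPM with estradiol, against 3.95, 0.856 and 3.74 CPM with water, again with replicate 2 the lowest of each group and a log2 fold change of 2.72 ± 1.11, or 1.51 without estradiol replicate 1. AT5G05600, the third member of the family in the list, had 148, 27.1 and 139 CPM with estradiol, against 32.1, 58.9 and 35.4 CPM with water, and replicate 2 with estradiol was the lowest of the 6. The storage protein gene VSP2, a late jasmonate marker, had 84.4, 9.59 and 16.3 CPM with estradiol, against 26.6, 7.46 and 13.6 CPM with water. It was high in replicate 1 of both groups and lowest in replicate 2 of both, and its log2 fold change of 1.21 ± 1.11 became -0.30 without estradiol replicate 1.

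MYC factors bind the G-box, CACGTG, which reads the same on both strands. In the 250 bases before the outermost start that the files or RefSeq annotate, 6 of 31 jasmonate genes held it (19.4%), against 7.26% of 19576 genes tested with a full window. In the 250 bases before the start in the files alone, 12 of 31 held it (38.7%), against 8.94%, so the share depended on which annotated start was used. JAZ7 and JAZ8, repressor genes that were high in replicate 3 with estradiol and replicate 2 with water, held it in both windows. The 6 jasmonate genes with the highest fitted fold changes, CYP94B3, AT2G38240, JRG21, CYP94B1, JAZ10 and CYP94C1, had no match in either window. JAZ8 had 2.85, 2.11 and 10.8 CPM with estradiol, against 0.5, 5.32 and 1.32 CPM with water. A match in the letters is a description and not a binding site. The windows before the outermost starts are shown with the G-box in capitals, from RefSeq's TAIR10.1 sequence, for JAZ7 at chr2:14572780-14573029 and JAZ8 at chr1:10596102-10596351, both on the plus strand.
JAZ7: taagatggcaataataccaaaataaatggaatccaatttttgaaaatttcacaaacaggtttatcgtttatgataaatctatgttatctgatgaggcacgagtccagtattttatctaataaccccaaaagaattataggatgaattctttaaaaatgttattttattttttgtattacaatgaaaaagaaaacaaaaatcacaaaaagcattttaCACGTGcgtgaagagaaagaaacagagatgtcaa
JAZ8: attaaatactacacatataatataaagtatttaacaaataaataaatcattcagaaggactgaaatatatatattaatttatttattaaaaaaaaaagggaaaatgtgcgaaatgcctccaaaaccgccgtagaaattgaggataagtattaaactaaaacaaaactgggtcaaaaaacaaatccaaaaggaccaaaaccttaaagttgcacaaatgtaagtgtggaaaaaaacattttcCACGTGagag

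Several cold and dehydration genes were higher with estradiol in each same-number pair, including the pair numbered 2, in which most jasmonate genes were lower with estradiol. The list of abscisic acid, drought and cold holds 21 genes, of which 20 were measured. Among these, 14 had a log2 fold change above 0 (70.0%, against 52.1% of all genes) and the median was 0.22. None was called, 3 had an unadjusted p under 0.05 (background 1.09%), 5 had all estradiol libraries above all water libraries (background 2.32%) and 8 were higher in all 3 pairs (background 11.3%). The summed level was 1271, 1078 and 1002 CPM with estradiol and 927, 948 and 940 CPM with water, so the sums of the Col-0 groups did not overlap. In the lines, also sprayed with estradiol, the sums ranged from 779 to 1055 and from 749 to 1173 CPM. Both ranges reach below the water sums. The pair medians were 0.39, 0.26 and 0.17. The median of the fitted values was 0.10 without estradiol replicate 1, 0.35 without water replicate 2 and 0.08 without the pair numbered 1.

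COR15A (chr2:17711032-17712330, minus strand), which encodes a chloroplast protein that protects membranes in the cold, had 136, 17.43 and 86.0 CPM with estradiol, against 26.2, 8.13 and 21.6 CPM with water. The estradiol library was higher in each pair, by 2.37, 1.1 and 1.99 on the log2 scale, but the groups overlapped because replicate 2 was low in both. The log2 fold change was 2.1 ± 0.77 (SE, 95% interval 0.43 to 3.76; adjusted p = 0.9998 in edgeR), and 1.46 without estradiol replicate 1. KIN1 (chr5:5209898-5210727, plus strand), a small hydrophilic protein of cold and drought, had 3.96, 1.25 and 1.97 CPM with estradiol, against 0.450, 0.428 and 0.804 CPM with water. All Col-0 estradiol libraries lay above all water libraries, at 75, 28 and 40 counts against 9, 9 and 17 counts. The log2 fold change of KIN1 was 2.07 ± 0.61 (95% interval 0.76 to 3.38). In the lines KIN1 ranged from 0.561 to 1.26 and from 0.666 to 2.69 CPM. KIN2 (chr5:5211911-5212665, plus strand), the neighbouring and related gene, had 123, 43.8 and 76.4 CPM with estradiol, against 38.3, 32.1 and 42.8 CPM with water. The groups did not overlap, though replicate 2 with estradiol lay close to replicate 3 with water. KIN2 had a log2 fold change of 1.1 ± 0.35, and 0.66 without estradiol replicate 1.

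**Figure D3:**
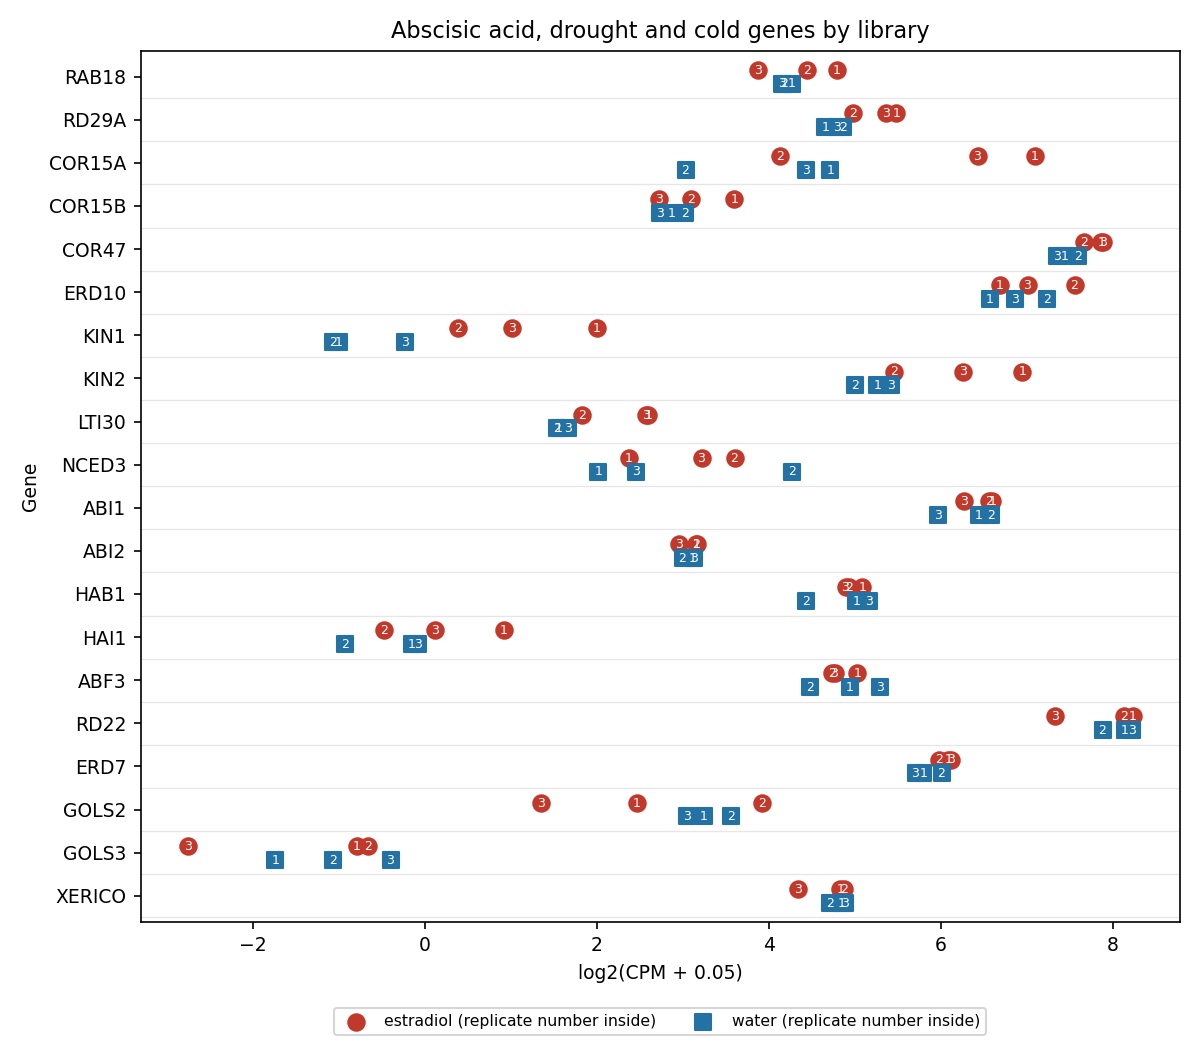
Level of each of the 20 measured genes of abscisic acid, drought and cold, on the log2(CPM + 0.05) axis, in the 3 estradiol (circles) and 3 water (squares) libraries, with the replicate number inside each symbol. For RD29A, COR47, KIN1, KIN2 and LTI30 the circles lie to the right of the squares, while COR15A overlaps because replicate 2 is low in both groups, at 17.43 and 8.13 CPM.

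The dehydrin genes LTI30 and COR47 and the reporter gene RD29A also had all estradiol libraries above all water libraries, with smaller sizes, while the dehydrin genes RAB18 and ERD10 did not. LTI30, a dehydrin, had 6.02, 3.49 and 5.91 CPM with estradiol, against 2.90, 2.85 and 3.12 CPM with water, and a log2 fold change of 0.79 ± 0.38 (SE). RD29A, the classical drought and cold reporter gene, had 44.7, 31.4 and 41.1 CPM with estradiol, against 25.2, 29.0 and 27.7 CPM with water, and a log2 fold change of 0.52 ± 0.27. COR47, another dehydrin, had 233, 202 and 237 CPM with estradiol, against 173, 193 and 163 CPM with water, and a log2 fold change of 0.35 ± 0.20. In LTI30, RD29A and COR47 the pair numbered 2 showed the smallest difference. RAB18 had 27.6, 21.8 and 14.6 CPM with estradiol, against 19.2, 18.0 and 17.7 CPM with water, and was lower with estradiol in pair 3. ERD10 had 103, 188 and 129 CPM with estradiol, against 95.1, 150.4 and 116 CPM with water, higher in each pair but with overlapping groups. RD22, a dehydration-responsive gene of the BURP family, had 299.7, 279.7 and 160.4 CPM with estradiol, against 282, 235 and 298 CPM with water, with a log2 fold change of -0.14 ± 0.22. COR15B, ERD7, GOLS2 and GOLS3 had log2 fold changes of 0.31, 0.22, -0.34 and -0.20 with overlapping groups, and signalling members of the list overlapped as well. The phosphatase gene ABI1 had 96.8, 94.2 and 77.1 CPM with estradiol, against 86.9, 95.8 and 62.6 CPM with water, and its relative ABI2 had 8.92, 8.87 and 7.73 CPM with estradiol, against 8.65, 7.94 and 8.70 CPM with water.

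The CBF genes, whose products act on these promoters, differed from COR15A in their order across replicates. By pair, CBF2 was higher with estradiol in each, CBF1 in pairs 2 and 3, and CBF3 in pairs 1 and 2. CBF2 had 2.06, 14.5 and 3.25 CPM with estradiol, against 1.1, 10.6 and 2.13 CPM with water, and CBF1 had 0.317, 9.14 and 2.02 CPM with estradiol, against 0.350, 7.42 and 0.662 CPM with water. Both were highest in replicate 2 of each group, where COR15A was lowest. CBF3 was also highest there, at 3.45 CPM with estradiol and 3.28 CPM with water in replicate 2, and at 0.739 and 0.689 CPM with estradiol and 0.450 and 1.37 CPM with water in replicates 1 and 3.

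The core of the CRT/DRE element, CCGAC on one strand or GTCGG on the other, was searched in the same windows. Before the outermost annotated start it was found in 6 of 20 genes of the list (30.0%), against 13.02% of 19576 genes tested, and RD29A, COR15A and LTI30 were among the 6 while KIN1, KIN2 and COR47 were not. Before the start in the files it was found in 10 of 20 (50.0%), against 14.7%, and KIN1, KIN2 and COR47 were then among the 10. For COR15A the window was the same under both annotations. The G-box was in 2 of 20 (10%) before the outermost start and in 6 of 20 (30.0%) before the start in the files. No match says only that the letters are not in that window.

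The windows before the outermost start are shown for RD29A, COR15A and LTI30, which held the core, and for KIN1, which had no match there. Capitals mark the core on either strand and, in COR15A, also the G-box that lies nearest to the start. The sequences are RefSeq's TAIR10.1, 5′ to 3′ on the strand of the gene: RD29A at chr5:21240467-21240716 (plus strand), COR15A at chr2:17712331-17712580 (minus strand), LTI30 at chr3:18940393-18940642 (plus strand) and KIN1 at chr5:5209467-5209716 (plus strand).
RD29A: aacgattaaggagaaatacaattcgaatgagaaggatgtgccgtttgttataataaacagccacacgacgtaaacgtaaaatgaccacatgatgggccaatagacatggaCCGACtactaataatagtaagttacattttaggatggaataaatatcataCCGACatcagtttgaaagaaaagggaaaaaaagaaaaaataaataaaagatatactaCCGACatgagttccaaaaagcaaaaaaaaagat
COR15A: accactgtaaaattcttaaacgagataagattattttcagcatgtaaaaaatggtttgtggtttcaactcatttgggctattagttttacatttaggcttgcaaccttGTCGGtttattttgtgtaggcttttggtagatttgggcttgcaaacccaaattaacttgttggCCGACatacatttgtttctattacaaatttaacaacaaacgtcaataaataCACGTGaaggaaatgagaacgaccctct
LTI30: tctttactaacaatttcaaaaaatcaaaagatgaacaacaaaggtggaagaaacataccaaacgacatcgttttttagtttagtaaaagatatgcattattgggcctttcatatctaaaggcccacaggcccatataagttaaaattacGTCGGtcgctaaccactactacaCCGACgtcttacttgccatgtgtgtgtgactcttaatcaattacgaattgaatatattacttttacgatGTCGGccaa
KIN1: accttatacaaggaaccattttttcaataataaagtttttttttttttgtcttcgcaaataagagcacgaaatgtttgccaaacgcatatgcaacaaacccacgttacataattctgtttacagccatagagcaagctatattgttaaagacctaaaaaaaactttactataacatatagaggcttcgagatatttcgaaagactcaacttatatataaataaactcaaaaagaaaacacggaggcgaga
Counted back from the annotated start, the cores began at -140, -90 and -33 in RD29A, at -142 and -79 in COR15A and at -101, -78 and -9 in LTI30, and the G-box of COR15A began at -28.

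Touch and early stress genes varied more between libraries of 1 group than between the groups. The list holds genes that respond within minutes to handling, wounding or microbial signals, and 24 of 25 were measured, 20 of them with a log2 fold change above 0 (83.3%) and a median of 0.32. None was called, and 1 (MYB44) had an unadjusted p under 0.05 (background 1.09%). The summed level was 2040, 3518 and 3683 CPM with estradiol and 1634, 4529 and 1572 CPM with water, high in both replicates 2 and in replicate 3 with estradiol. Pair medians were 0.54, -0.01 and 1.05, with 20, 12 and 23 of 24 higher, and 9 members (37.5%, background 11.3%) were higher in all 3 pairs. The median changed sign to -0.25 without estradiol replicate 2 and to -0.03 without water replicate 1. It was 0.05 without water replicate 3, 0.59 without estradiol replicate 1 and 1.34 without water replicate 2.

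TCH4, a cell wall enzyme gene named for its response to touch, had 194, 197 and 608 CPM with estradiol, against 88.2, 322 and 114 CPM with water. Replicate 3 with estradiol was the highest of the 6 and replicate 2 with water the next, and the log2 fold change of 0.93 ± 0.56 (SE) was 0.16 without estradiol replicate 3 and 1.72 without water replicate 2. CML38, a calmodulin-like calcium sensor, had 22.5, 69.6 and 46.2 CPM with estradiol, against 10.3, 50.5 and 19.96 CPM with water. It was higher with estradiol in every pair and highest in replicate 2 of both groups. WRKY40, an early immune regulator, had 19.3, 97.3 and 79.2 CPM with estradiol, against 13.2, 127 and 15.2 CPM with water, and its groups overlapped widely. MYB44, a stress-induced MYB factor, had 162, 135 and 223 CPM with estradiol, against 109, 146 and 103 CPM with water, with a log2 fold change of 0.54 ± 0.23 that was 0.31 without estradiol replicate 3. MYB44 overlaps the gene AT5G67310, and reads from the shared stretch cannot be told apart, since the library kit does not mark strand. How such reads were counted is not given.

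Genes of the clock differed between libraries of the same treatment, and the sources used here do not give the hour at which each pool was taken. PRR5, which is expressed late in the day, had 49.1, 54.2 and 115 CPM with estradiol, against 32.4, 93.2 and 30.8 CPM with water. FKF1, an afternoon gene, had 5.44, 5.60 and 20.5 CPM with estradiol, against 3.55, 14.6 and 1.42 CPM with water. Both were high in replicate 3 with estradiol and replicate 2 with water, the libraries in which JAZ7, CYP94C1 and TCH4 were highest. CCA1, a morning gene, had 30.9, 27.6 and 21.02 CPM with estradiol, against 26.8, 15.2 and 33.6 CPM with water, and was lowest in those same libraries. The clock list as a whole had 15 of 18 members above 0 with a median log2 fold change of 0.16, which was 0.31 without estradiol replicate 2, 0.10 without water replicate 2, 0.09 without estradiol replicate 3 and 0.07 without estradiol replicate 1. The part of these differences in the jasmonate and touch results was not tested.

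In 896 genes (4.56% of those tested) the 3 estradiol libraries lay entirely above or below the 3 water libraries, 457 above (2.32%) and 439 below (2.23%). Of all orderings of 6 libraries, a proportion of 0.1 separates the 2 groups completely, which is more than the 4.56% seen here. Among them, the 10 per direction with the largest fold changes and a mean of at least 1 CPM were chosen on these values and are described without a test. The 10 higher ones had log2 fold changes from 1.16 to 2.07 and the 10 lower ones from -0.93 to -0.64. Their counts were low in most cases, and replicate 2 with estradiol was often the closest to the water libraries.

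**Figure D4:**
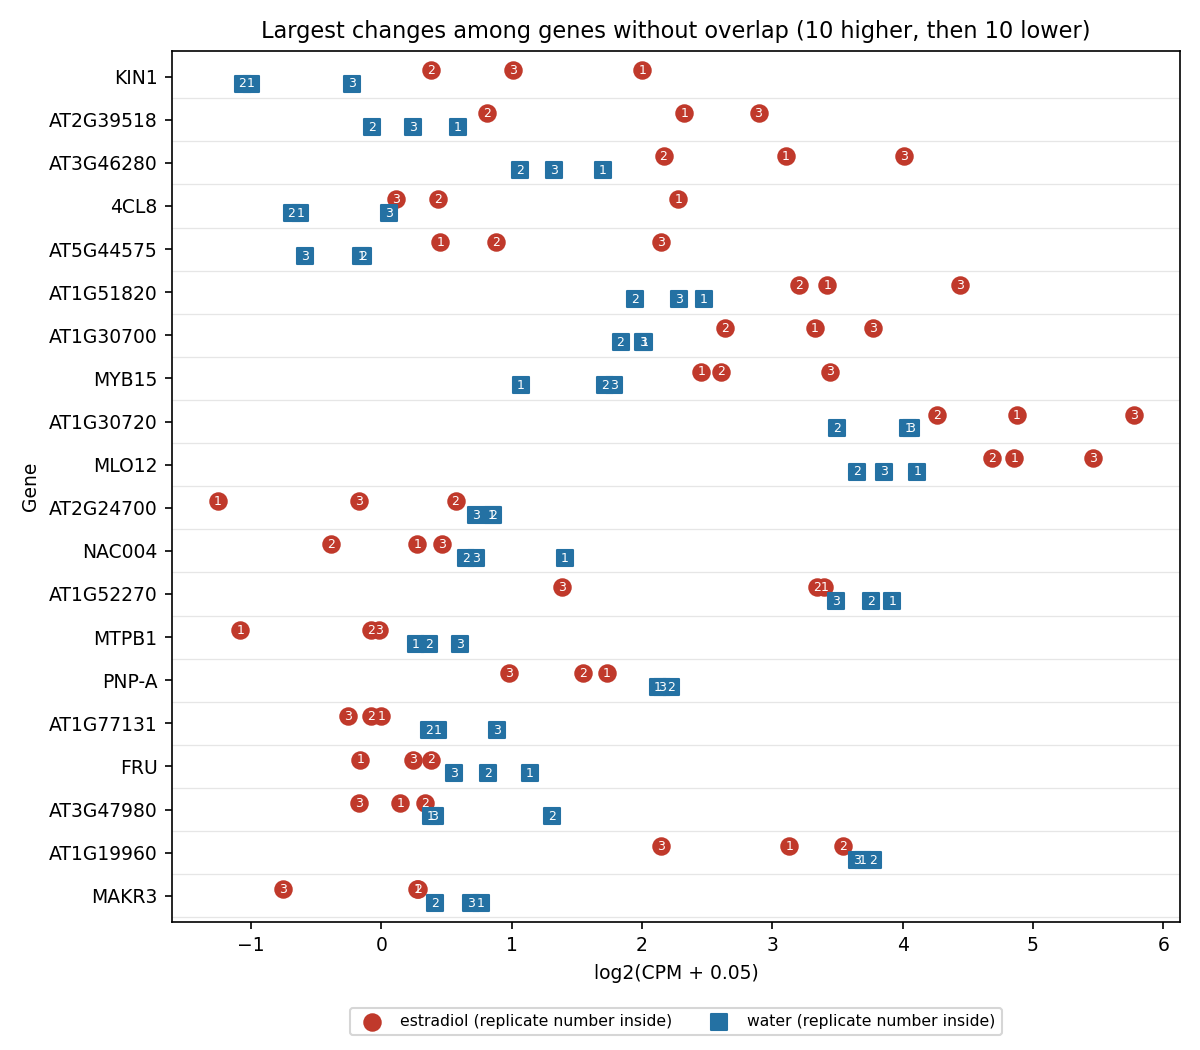
Level, on the log2(CPM + 0.05) axis, of the 10 genes with all estradiol libraries (circles) above all water libraries (squares) and the 10 with all below, chosen for the largest fold changes, with the replicate number inside each symbol. KIN1 heads the higher genes at 1.25 to 3.96 CPM with estradiol and 0.428 to 0.804 CPM with water, and AT2G24700 heads the lower ones at 0.369 to 1.43 CPM with estradiol and 1.61 to 1.76 CPM with water.

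Higher genes with annotated products included kinases, berberine-type enzymes and defence genes. AT3G46280 (chr3:17005483-17008424, minus strand), annotated as kinase-like, had 8.55, 4.44 and 16.1 CPM with estradiol, against 3.20, 2.04 and 2.46 CPM with water. Its log2 fold change was 1.91 ± 0.43 (SE), and it had the smallest p of all genes tested in edgeR (adjusted p = 0.9998). It stood at 1.33 without estradiol replicate 3, and at 2.26 without estradiol replicate 2, with an adjusted p of 0.273 in edgeR. AT1G51820, a leucine-rich repeat kinase, had 10.7, 9.18 and 21.6 CPM with estradiol, against 5.50, 3.80 and 4.83 CPM with water, and its level is uncertain because another gene matched it at 94.4% identity over 320 bases. MLO12 (chr2:16356148-16359813, minus strand), of the family known from powdery mildew susceptibility, had 28.9, 25.7 and 44.0 CPM with estradiol, against 17.2, 12.5 and 14.4 CPM with water. All pairs differed in the same direction, by 0.74, 1.04 and 1.60 on the log2 scale, and the fitted value was 1.16 ± 0.26.

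AT1G30700 and AT1G30720, neighbours on chromosome 1 that encode FAD-binding berberine-family enzymes, were both among the 10. AT1G30700 had 9.97, 6.18 and 13.6 CPM with estradiol, against 4.00, 3.52 and 3.97 CPM with water. AT1G30720 had 29.3, 19.2 and 54.7 CPM with estradiol, against 16.4, 11.2 and 16.7 CPM with water. Another berberine-family gene, AT4G20860 (chr4:11172622-11174467, plus strand), was named after its values were seen, for its small unadjusted p. It had 147, 101 and 177 CPM with estradiol, against 65.6, 72.4 and 76.3 CPM with water, with no overlap and a log2 fold change of 0.99 ± 0.24 (SE). It overlaps the gene AT4G20870, and reads from the shared stretch cannot be told apart.

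MYB15, a MYB transcription factor of defence and cold responses, had 5.44, 6.05 and 10.8 CPM with estradiol, against 2.05, 3.23 and 3.41 CPM with water, with no overlap and a log2 fold change of 1.36 ± 0.46 (SE). AT2G39518, of the uncharacterized UPF0497 family, had 4.96, 1.70 and 7.39 CPM with estradiol, against 1.45, 0.903 and 1.14 CPM with water, and it overlaps AT2G39520. The remaining higher genes were 4CL8, with 4.80, 1.3 and 1.03 CPM with estradiol against 0.6, 0.571 and 0.993 CPM with water, and AT5G44575, with 1.32, 1.79 and 4.38 CPM with estradiol against 0.850, 0.856 and 0.615 CPM with water. The log2 fold change of 4CL8, 1.70 ± 0.82, was 0.68 without estradiol replicate 1, and that of AT5G44575, 1.69 ± 0.43, was 1.00 without estradiol replicate 3.

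Also named after their values were seen are AT2G43620 and RAP2.6. AT2G43620 (chr2:18093770-18095025, minus strand), a chitinase-family gene, had 13.8, 16.3 and 21.4 CPM with estradiol, against 9.70, 8.94 and 7.90 CPM with water, with no overlap and a log2 fold change of 0.96 ± 0.22 (SE). RAP2.6 (chr1:16263813-16264818, plus strand), an ERF-family transcription factor of stress and jasmonate responses, had 34.8, 1.84 and 19.4 CPM with estradiol, against 3.20, 0.951 and 2.13 CPM with water. Replicates 1 and 3 with estradiol were far above the rest and replicate 2 was not, as in AT2G38240 and JRG21. Its log2 fold change was 3.16 ± 0.90 (adjusted p = 0.9998 in edgeR), and 2.33 without estradiol replicate 1.

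The lower genes were scarce transcripts with small differences. FRU, the helix-loop-helix regulator of iron uptake in roots, had 0.844, 1.25 and 1.13 CPM with estradiol, against 2.15, 1.71 and 1.42 CPM with water. MTPB1, a metal tolerance protein gene that overlaps AT2G29420, had 0.422, 0.896 and 0.935 CPM with estradiol, against 1.15, 1.24 and 1.47 CPM with water. PNP-A, a plant natriuretic peptide gene, had 3.27, 2.87 and 1.92 CPM with estradiol, against 4.3, 4.61 and 4.40 CPM with water, and matched another gene at 93.9% identity over 279 bases. The largest difference in this direction was -0.93 ± 0.35 (SE) for AT2G24700, a B3-family gene, and it was -0.58 without estradiol replicate 1 and -1.48 without estradiol replicate 2. NAC004, AT1G52270, AT1G77131, AT3G47980, AT1G19960 and MAKR3 made up the rest, none above 15.1 CPM in any library.

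Detoxification genes, which respond to foreign compounds, had 21 of 24 measured members above 0 (87.5%) with a median log2 fold change of 0.24. None was called or had an unadjusted p under 0.05 (background 1.58%), and 5 members (20.8%) were higher in all 3 pairs, against 11.3% of all genes. For 0 of 24 did the groups stay apart in either direction (background 4.56%). Pair medians were 0.31, -0.01 and 0.34, with 18, 10 and 19 of 24 higher. The summed level was 3392, 2862 and 2495 CPM with estradiol and 3492, 3489 and 2190 CPM with water, so it was lower with estradiol in pairs 1 and 2. The median was 0.09 without estradiol replicate 1 and 0.43 without estradiol replicate 2. GSTU4, a glutathione transferase, had 24.1, 10.2 and 11.1 CPM with estradiol, against 11.9, 7.65 and 9.22 CPM with water, with a log2 fold change of 0.66 ± 0.52 (SE), or 0.15 without estradiol replicate 1. UGT73B3, a glucosyltransferase, had 5.96, 4.66 and 6.94 CPM with estradiol, against 4.15, 4.71 and 3.31 CPM with water. It shares 90.5% identity with a neighbouring gene over 465 bases and overlaps AT4G34120.

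Sterol and brassinosteroid genes were examined because estradiol is a steroid. Of 25 measured, 16 were above 0 (64.0%, against 52.1% of all genes) with a median of 0.02. None was called or had an unadjusted p under 0.05 (background 1.58%), and 1 was higher in all 3 pairs (4%, background 11.3%). CYP51G1, the sterol demethylase, had 84.5, 83.9 and 80.2 CPM with estradiol, against 88.6, 83.8 and 84.2 CPM with water. The groups overlapped and the log2 fold change was -0.05 ± 0.07 (SE, 95% interval -0.21 to 0.11), one of the narrowest intervals among the genes named here.

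Defence lists outside jasmonate were centred near 0. Salicylic acid and immunity genes had 10 of 20 above 0 (50.0%) and a median of 0.00. PR1, the salicylic acid marker, had 7.12, 1.52 and 3.05 CPM with estradiol, against 5.85, 4.90 and 7.57 CPM with water, with overlapping groups and a log2 fold change of -0.66 ± 1.02 (SE). It was -1.43 without estradiol replicate 1 and -0.27 without estradiol replicate 2. In the list of camalexin and indole glucosinolates 4 of 18 were above 0 (22.2%) with a median of -0.14, and 4 were lower in all 3 pairs (22.2%, against 11.6% of all genes). PAD3, which makes camalexin, had 24.3, 12.9 and 9.99 CPM with estradiol, against 26.2, 19.9 and 17.1 CPM with water. The median of this list was -0.04 without estradiol replicate 3 and -0.01 without water replicate 2. Ethylene genes had 13 of 20 above 0 and a median of 0.06, and ACS7, an enzyme of ethylene synthesis, had 1.16, 2.42 and 3.05 CPM with estradiol, against 0.400, 1.81 and 0.710 CPM with water, with overlapping groups.

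**Figure D5:**
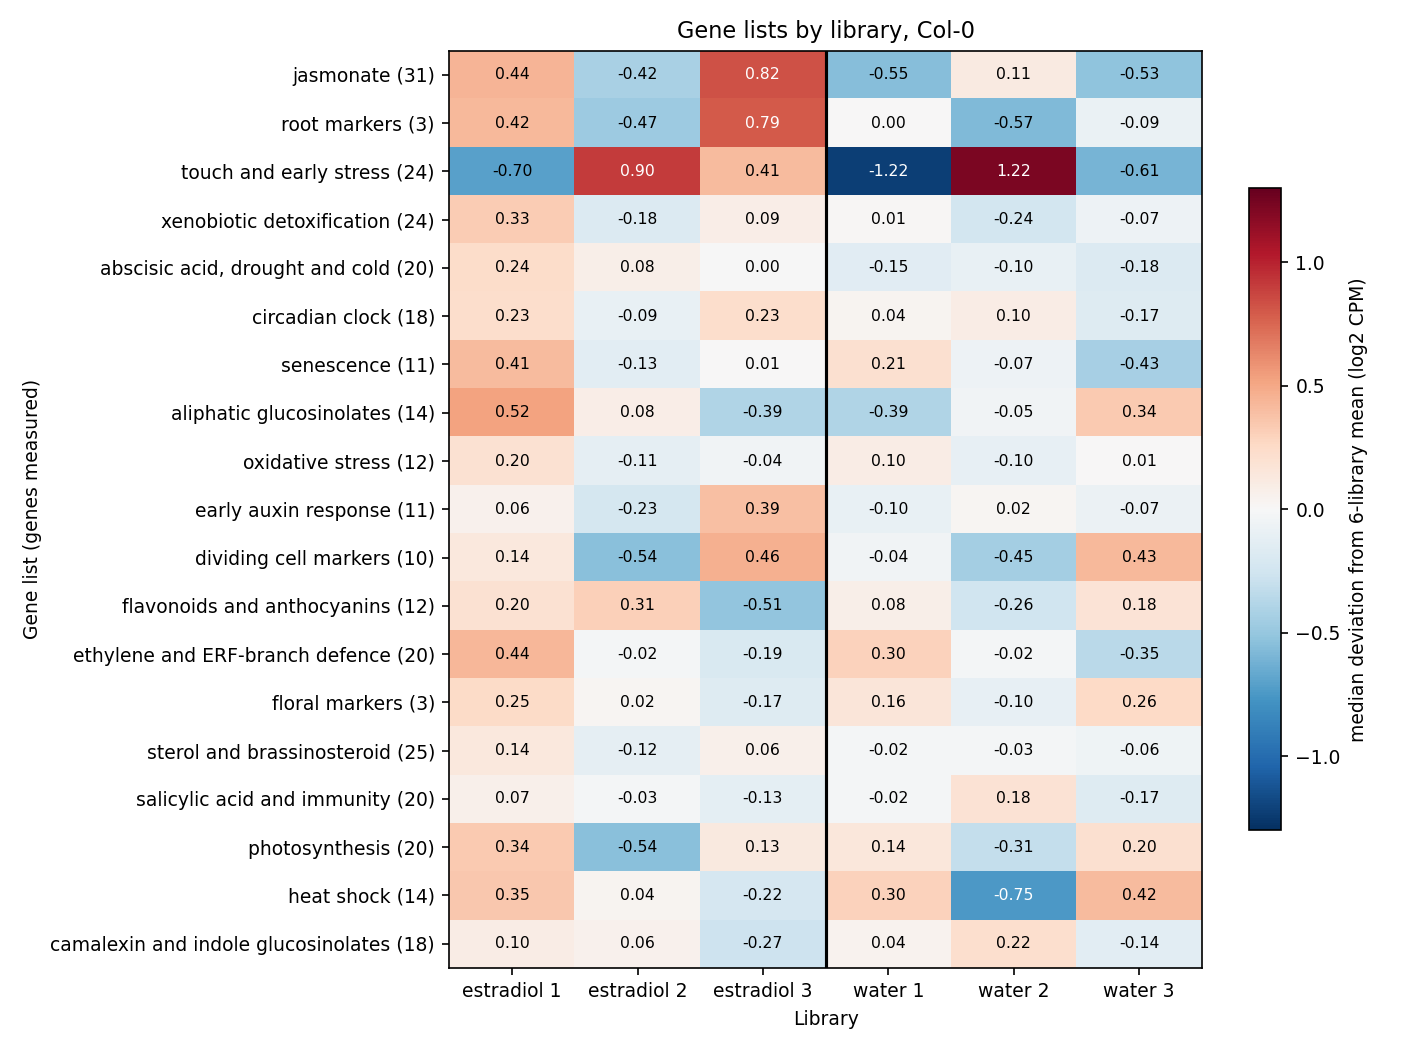
Median deviation of the members of each gene list from their mean over the 6 Col-0 libraries (log2 CPM, colour and printed value), by library, with estradiol libraries left of the black line, the number of measured genes in brackets and lists ordered by their fitted median. The jasmonate row reads 0.44, -0.42 and 0.82 with estradiol and -0.55, 0.11 and -0.53 with water, and the touch row has its highest values in the replicates 2, at 0.90 and 1.22.

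The other lists varied by library without a common order of the groups. Aliphatic glucosinolate genes had pair medians of 1.14, 0.16 and -0.78, so pairs 1 and 3 went opposite ways, and flavonoid genes had 0.10, 0.76 and -0.84. Photosynthesis genes had 9 of 20 above 0, a median of -0.01 and pair medians of 0.21, -0.19 and -0.11. Heat shock genes had 6 of 14 above 0 with a median of -0.02, and HSP17.4 had 3.69, 0.762 and 2.02 CPM with estradiol, against 0.8, 0.666 and 1.04 CPM with water, overlapping AT3G46220 on the chromosome. Auxin (7 of 11 above 0, median 0.09), senescence (9 of 11, 0.14), oxidative stress (7 of 12, 0.10) and dividing-cell lists (7 of 10, 0.09) had medians whose sign turned without 1 library: without estradiol replicate 1 senescence stood at -0.00 and oxidative stress at -0.14, and without estradiol replicate 3 auxin stood at -0.10 and dividing cells at -0.14. Without water replicate 2, dividing cells stood at -0.09. Medians of the salicylic acid, sterol, photosynthesis, heat shock and ethylene lists also changed sign when single libraries were left out, and stayed between -0.32 and 0.33. The nitrate transporter NRT2.1, a root marker, had 2.01, 1.16 and 3.69 CPM with estradiol, against 1.3, 0.856 and 0.473 CPM with water, with overlapping groups.

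Each estradiol library also had genes of its own, chosen for standing farthest outside the other 5 libraries. In replicate 1, GolS1, a galactinol synthase of heat and drought, stood at 76.6 CPM, against 13.8 and 18.8 CPM in the other estradiol libraries and 14.2, 8.32 and 18.8 CPM with water. NATA1, an ornithine acetyltransferase gene, stood at 23.2 CPM there, against 3.63 and 2.90 CPM in the other estradiol libraries and 6.75, 1.47 and 6.20 CPM with water. Both genes stood out in that library alone. In replicate 3, BT2 stood at 538 CPM, against 29.8 and 4.84 CPM in replicates 1 and 2 with estradiol and 11.1, 71.4 and 10.9 CPM with water. Its relative BT1, both BTB and TAZ domain proteins, had 276 CPM in replicate 3, against 64.8 and 31.8 CPM in the other estradiol libraries and 31.1, 69.8 and 32.4 CPM with water. ARR6, a cytokinin-induced response regulator, had 30.0 CPM in replicate 3, against 5.01 and 3.18 CPM in the other estradiol libraries and 3.85, 3.99 and 6.58 CPM with water.

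Replicate 2 with estradiol was marked more by low values. DIN11, a dark-inducible gene, stood at 1.08 CPM there, against 36.6 and 13 CPM in replicates 1 and 3 with estradiol and 9.4, 4.56 and 7.47 CPM with water. PAP2, a MYB regulator of anthocyanin synthesis, was the exception, at 19.9 CPM in replicate 2, against 0.633 and 0.0985 CPM in replicates 1 and 3 with estradiol and 4.45, 4.42 and 1.61 CPM with water. In all, 22, 1 and 34 genes with a mean of at least 5 CPM were at least 2-fold above all other libraries in estradiol replicates 1, 2 and 3, against 0, 2 and 0 in the water replicates. For 2-fold below all others the numbers were 0, 5 and 29 with estradiol and 3, 9 and 6 with water. Genes standing low in a water library included the early stress regulator ORA47 at 2.80 CPM in replicate 1, the heat shock factor HSFA2 at 2.47 CPM in replicate 2, and the inositol oxygenase MIOX2 at 16.2 CPM in replicate 3, against 68.2 to 205 CPM for MIOX2 in the other 5.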

How the data were processed

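Gene expression was measured by RNA-seq of whole rosettes, from 100 ng of total RNA a library. Per the labels' protocols the kit was TruSeq v2, an unstranded one. Per the submitters' processing notes, the tools were HTSeq, SAMtools, TopHat2 and FastQC and the build was TAIR10. The sources used here give no versions or counting settings. The files deposited hold raw counts per gene made by the authors, for 33602 genes in each library, and 0% of rows named no gene. Total counts lay between 20456036 and 22605970 over all 14 libraries.

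Samples were grouped by title. A single edgeR model (edgeR 4.0.16, limma 3.58.1, R 4.3.3) covered the 14 libraries with group as the factor, TMM scaling and 10 residual degrees of freedom. The filterByExpr step (minimum count 10) kept 19666 genes and removed 13936. The robust quasi-likelihood F test compared Col-0 with estradiol and Col-0 with water, and a gene was called at a Benjamini-Hochberg adjusted p under 0.05 over all genes tested. Standard errors came from the F statistic. CPM values were TMM-scaled, and pair differences were taken on log2 CPM with a prior count of 1. Alternatives were DESeq2 1.42.0, other scalings, no filter, Col-0 libraries alone, a replicate block, and leaving out libraries. Leaving out same-number pairs and the promoter window before the start in the files were added after the data were seen. The procedure was tested on simulated data.

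The comparison, its 19 gene lists (310 of 334 entries measured) and the members were chosen with earlier results of these data known. Genes named were WRKY75, up to 10 per direction with the largest fold change among genes whose groups did not overlap, with a mean of at least 1 CPM, up to 4 per list with the largest change, and up to 4 per library farthest outside the others, with a mean of at least 5 CPM. Other list members were chosen after their values were seen, as examples of a known function. Gene coordinates are those in the files (TAIR10). RefSeq's TAIR10.1 annotation paired 32835 of 33323 nuclear loci by locus tag, all on the same chromosome, with both ends equal in 32.3%. Copies were searched with blastn 2.17.0.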

Additional observations from a re-analysis of the deposited data

How the results depend on the processing

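No gene was called in any of the settings tried: DESeq2, RLE factors, library totals, no filter, Col-0 libraries alone, without the fourth libraries of the lines, the replicate block, and leaving out each Col-0 library or each same-number pair. The count of genes at an unadjusted p under 0.05, 310 with all libraries, ran from 163 to 1047 when single Col-0 libraries were left out, and was 942 without pair 2, 202 without pair 3 and 247 without pair 1. It was 223 with the Col-0 libraries alone, 253 with library totals and 393 without the filter.

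With a replicate block it was 701 over all libraries and 562 in the Col-0 libraries alone. The labels do not say what a replicate number stands for, and the main fit was set without a replicate block. The correlation of deviations by number was 0.51, 0.28 and 0.07 for replicates 1, 2 and 3. Estradiol replicates 1 and 2 correlated best with the water library of their own number, and estradiol replicate 3 with water replicate 2.

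Of the named genes whose fold change was followed across settings, 6 turned direction in some setting. RD22, COR15B, ERD7, GOLS2 and GOLS3 were not among the genes followed. Without single libraries, values ran from -0.23 to 3.19 for CYP94C1, -0.44 to 3.41 for JAZ7, -0.078 to 4.12 for RRTF1 (1.63 with all libraries), -0.29 to 1.15 for LOX2 and -0.30 to 1.79 for VSP2, the lowest without estradiol replicate 3 for the first 3 genes and without estradiol replicate 1 for LOX2 and VSP2. Without pair 3 the log2 fold change was -0.63 for CYP94C1, -0.84 for JAZ7, -0.55 for RRTF1 and -0.074 for TCH4, and without pair 1 it was -0.22 for LOX2. The causes were not tested. With 3 libraries a group, the unadjusted interval reached 0.38 (log2) to either side for the median gene, and it was wider for many stress genes. Calls used the adjusted p, a stricter limit, so changes larger than 0.38 could also go uncalled. MLO12, with a log2 fold change of 1.16 ± 0.26 (SE), was not called.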
